A study of Mus musculus with 6 samples.

Results

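The 9 genes described here belong to the pathway that runs from tumour necrosis factor (TNF) to the transcription factor NF-kappaB. They were chosen by name, as Tnf, Tnfrsf1a, Tnfaip3, Nfkbia, Nfkb1, Nfkb2, Rela, Relb and Birc3, and all 9 were found among the 43629 genes of the count table. RNA was sequenced from primary mouse keratinocytes, the epithelial cells of the epidermis. They came from female mice at postnatal day 3 and were grown for 5 days in low-calcium medium, as the labels have it (a figure legend of the study gives a shorter time). Control cells came from Dnmt1f/f or Dnmt1f/+ mice without Cre (3 libraries), and Dnmt1Δ/Δep cells from K5-Cre+ Dnmt1f/f mice (3 libraries). All mice had a mixed C57BL/6J and 129SV background. K5-Cre is driven by the keratin 5 promoter, so the deletion of Dnmt1, the maintenance DNA methyltransferase, was directed to keratin 5-expressing epithelium. The labels do not say which of the control genotypes each control library had. The design text asks which genes respond to loss of DNMT1 in keratinocytes themselves, outside the tissue.

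TNF binds the receptor encoded by Tnfrsf1a, which most cells carry, and the bound receptor gathers adaptors and ubiquitin ligases, among them the inhibitor-of-apoptosis protein encoded by Birc3. The IkappaB kinases are then activated and mark the inhibitor IkappaBα, encoded by Nfkbia, for degradation. This frees the NF-kappaB dimers that IkappaBα held. NF-kappaB dimers in general are built from the Rel-family subunits encoded by Rela, Relb, Rel, Nfkb1 and Nfkb2. NF-kappaB switches on chemokine and cytokine genes as well as its own brakes, Nfkbia and Tnfaip3, the latter encoding the ubiquitin-editing enzyme A20. In the epidermis both too much and too little of this signalling are known to give inflamed skin.

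The upstream sequences of the 3 members that passed the test are given first, since DNMT1 methylates CpG sites and NF-kappaB binds a short motif, the kappaB site. The sequences are from RefSeq (GRCm38.p6) and are written 5′ to 3′ on the strand of the gene, ending at the base before the annotated start. Bases in capitals match the 10-base kappaB consensus on either strand, and CpG sites can be read off as cg. For Tnfaip3 the stretch is limited to the 137 bases next to the start that lie outside every annotated exon. The Tnf stretch is chr17:35202008-35202257, the Nfkbia stretch chr12:55492648-55492897 and the Tnfaip3 stretch chr10:19015411-19015547, all on the minus strand.
Tnf: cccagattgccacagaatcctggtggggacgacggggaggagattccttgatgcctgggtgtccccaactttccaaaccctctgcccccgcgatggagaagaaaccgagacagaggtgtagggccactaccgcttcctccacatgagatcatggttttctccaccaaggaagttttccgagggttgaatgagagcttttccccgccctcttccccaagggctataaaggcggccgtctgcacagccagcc
Nfkbia: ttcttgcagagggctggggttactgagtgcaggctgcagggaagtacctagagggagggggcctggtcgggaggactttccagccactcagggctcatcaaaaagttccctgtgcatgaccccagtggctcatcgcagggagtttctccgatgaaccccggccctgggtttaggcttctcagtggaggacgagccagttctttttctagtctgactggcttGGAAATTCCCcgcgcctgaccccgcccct
Tnfaip3: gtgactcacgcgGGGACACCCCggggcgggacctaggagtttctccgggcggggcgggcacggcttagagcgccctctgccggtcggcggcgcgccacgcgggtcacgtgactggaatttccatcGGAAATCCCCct

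Windows of 300 bases, 250 before the start and 50 from it, were held for 7 of the 9 members, without Nfkb1 and Relb. The kappaB consensus was found in 8.46% of all 32851 windows of the mouse table. Nfkbia held 1 match, whose first base lay at -29 counted from the start, and the main Tnfaip3 window held 2, at -125 and -12. Of the members that did not pass the test below, Nfkb2 carried the densest set. Its first window held the 11-base run GGGAATTCCCC at -39, in which 2 matches overlap, and GGGGCTTTCC at -11, both within an annotated first exon of an Nfkb2 transcript. GGGACTTTCC lay in each of its other windows, which overlap, and one of these also held GGAATGTCCC. No match was found in the windows of Tnf, Tnfrsf1a, Rela and Birc3 or in the second window of Tnfaip3, which says only that these letters were absent from 300 bases. The looser motif of GGG, 5 bases of any kind and CC, searched on both strands and including every consensus match, was present in 50.8% of all windows and in every member window. The Tnf window held 11 CpG sites and the Nfkbia window 15, against a median of 7 over all windows. The main Tnfaip3 window held 22 and its second window 6. Of the members that did not pass, Tnfrsf1a held 11, Birc3 7 and Rela 31, and the windows of Nfkb2 20 to 25. Methylation was not measured in these libraries. A motif match or a CpG site is therefore a description of the sequence and not a measured binding or methylation site.

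The libraries held 53433121 to 115526598 reads assigned to genes. Dnmt1 itself was measured at 394, 379 and 324 counts per 1000000 gene reads after TMM scaling of the library size (CPM) in control libraries 1 to 3 and at 49.7, 54.3 and 50.7 CPM in Dnmt1Δ/Δep libraries 1 to 3, so every label matched its library. Keratinocyte markers were abundant throughout, with a summed level of 34574 to 37740 CPM in controls and 25532 to 26153 CPM in Dnmt1Δ/Δep, 49.7% of it Krt5. By the adjusted p alone 3 of the 10, Krt5, Krt14 and Col17a1, were lower, beside 1.66% of all genes, and 0 were called. The sums did not overlap between the groups. Melanocyte markers also did not overlap, at 224 to 573 CPM and 688 to 912 CPM. The leukocyte lists summed to low levels. The 15 markers of macrophages, dendritic and Langerhans cells summed to 1.97 to 4.49 CPM in controls and 4.87 to 6.83 CPM in Dnmt1Δ/Δep, about 48.6% of it H2-Ab1, with Ptprc, Adgre1, Cd207, Tyrobp and C1qa at 0 in at least 2 libraries each and never above 0.201 CPM. In that list 2 of 5 tested genes, Csf1r and Itgam, were called higher, beside 6.03% of all genes. All 5 had a log2 fold change above 0 (median 2.35), while H2-Ab1 and Mrc1 overlapped between the groups. Cd74 was at 0, 0 and 0.130 CPM in controls and 0.487, 0.162 and 0.364 CPM in Dnmt1Δ/Δep. The untested H2-Aa and Itgax, at 0.161 CPM or less, also had no overlap. Neutrophil markers summed to 0.159 to 0.521 CPM and 0.576 to 1.28 CPM, nearly all of it Cxcr2, and T cell markers to 2.25 to 3.17 CPM and 3.01 to 4.14 CPM, mostly Thy1. Mast cell markers summed to 3.55 to 8.53 CPM and 11.04 to 15.2 CPM, nearly all of it Kit, which melanocytes also express. Endothelial markers summed to 5.29 to 17.3 CPM and 14.5 to 22.1 CPM, with Cdh5 and Pecam1 called higher. The top endothelial gene Kdr (44.4% of the sum) overlapped between the groups, with a log2 fold change of -0.16. Fibroblast markers summed to 14.5 to 31.6 CPM and 14.7 to 63.5 CPM. Whether these cells contribute to the differences below was not tested. In bulk RNA, more cells of one type and more RNA per cell cannot be told apart.

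Of the 9 members, 2 were called higher in Dnmt1Δ/Δep keratinocytes and 0 lower. Calls needed a 2-fold change and an adjusted p of 0.05 or less in edgeR's quasi-likelihood test (Benjamini-Hochberg over 16829 genes). Of all genes tested, 6.03% were called higher and 0.392% lower. By the adjusted p alone, 3 members were higher and 0 lower, beside 7.71% and 1.66% of all genes. At an unadjusted p under 0.05 the members numbered 3 higher and 0 lower, beside 15.8% and 7.79% of all genes. DESeq2 called 2 members higher and 0 lower, beside 6.94% and 0.606% of the 20126 genes for which it gave an adjusted p. In 4 members all Dnmt1Δ/Δep libraries lay above all control libraries and in 0 below, beside 18.2% and 11.7% of all genes. The median log2 fold change over the 9 was 0.15, and over all genes it was -0.00. The members that passed were the ligand and both inhibitors, while the receptor, the ligase and the 4 subunits did not pass.

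**Figure D1:**
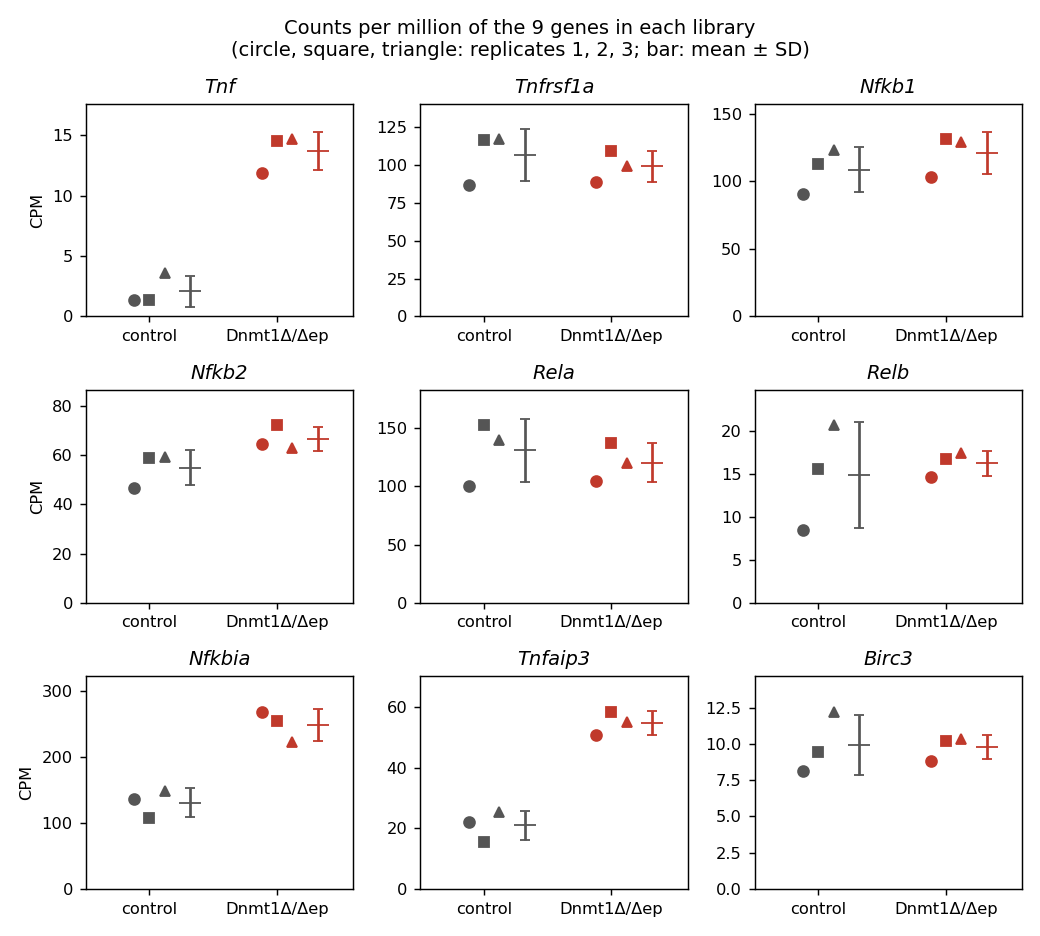
Read counts scaled to library size (CPM, linear axes from 0) of each of the 9 genes in the 3 control (grey) and 3 Dnmt1Δ/Δep (red) libraries, with circle, square and triangle for replicates 1, 2 and 3 and the mean ± SD beside them. Tnf, Tnfaip3, Nfkbia and Nfkb2 have no overlap between the groups, and the other 5 genes overlap.

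The ligand gene Tnf had the largest fold change of the 9. It was measured at 1.33, 1.39 and 3.57 CPM in control libraries 1, 2 and 3 and at 11.9, 14.6 and 14.7 CPM in the Dnmt1Δ/Δep libraries. The groups did not overlap, and control 3 stood above the other controls. The level rose 6.54-fold, from 2.1 ± 1.28 to 13.7 ± 1.57 CPM (SD, n = 3), with a log2 fold change of 2.73 (SE 0.40, edgeR adjusted p = 0.0074). Within same-numbered pairs, which shared a sequencing lane, the log2 differences were 3.14, 3.37 and 2.03, and without control 3 the fitted log2 fold change was 3.33. Tnf (chr17:35199381-35202007, minus strand, GRCm38) lies between the genes of the related lymphotoxins, with 1157 bases to Lta and 3060 to Ltb. Lta was at 0.835, 0.554 and 0.596 CPM in controls and 0.721, 0.451 and 0.339 CPM in Dnmt1Δ/Δep. Its groups overlapped, with a log2 fold change of -0.41 (95% interval -1.29 to 0.47) and differences within the pairs of -0.21, -0.28 and -0.77. Ltb was too low to be tested and did not exceed 0.116 CPM in any library. Among 12462 genes with a mean of at least 1 CPM, those whose pattern over the 6 libraries was most like that of Tnf were Rbm20, Isg15 and Ankk1. Their root mean square distances were 0.14, 0.24 and 0.30 in log2 CPM after each gene was centred on its control mean, and 2 genes lay within 0.25.

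The receptor gene Tnfrsf1a was abundant in both groups. Its levels were 86.8, 116 and 117 CPM in controls and 88.8, 109 and 99.5 CPM in Dnmt1Δ/Δep. In each group library 1 was the lowest, and the groups overlapped. The log2 fold change was -0.11 (95% interval -0.44 to 0.23, edgeR adjusted p = 0.75). The second TNF receptor gene, Tnfrsf1b, typical of leukocytes and not one of the 9, was called higher, from 0.423, 0.349 and 0.316 CPM to 1.38, 1.39 and 1.63 CPM. Its log2 fold change was 2.00 (SE 0.26, edgeR adjusted p = 0.0046). Per exon length (RPKM), Tnfrsf1a exceeded Tnfrsf1b 303-, 492- and 545-fold in the control libraries and 95.1-, 116- and 90.1-fold in the Dnmt1Δ/Δep libraries. The ratios did not overlap between the groups (two-sided exact permutation p = 0.1, the smallest that 3 against 3 libraries allow).

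Birc3, which encodes a ubiquitin ligase of the TNF receptor complex and is itself a known NF-kappaB target, was at 8.15, 9.45 and 12.2 CPM in controls and 8.86, 10.2 and 10.3 CPM in Dnmt1Δ/Δep. All Dnmt1Δ/Δep values lay inside the control range. The log2 fold change was -0.02 (95% interval -0.44 to 0.41, edgeR adjusted p = 0.97).

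Of the subunits, Rela encodes the strong transactivator p65. It was at 100, 152 and 140 CPM in controls and 104, 137 and 120 CPM in Dnmt1Δ/Δep, with library 1 the lowest of each group. Its log2 fold change was -0.12 (95% interval -0.53 to 0.29, edgeR adjusted p = 0.77). Nfkb1, whose product p105 is processed to p50, was at 90.5, 113 and 123 CPM in controls and 103, 131 and 129 CPM in Dnmt1Δ/Δep. Its groups overlapped, and the log2 fold change was 0.15 (95% interval -0.19 to 0.50, edgeR adjusted p = 0.62). Nfkb2 encodes p100, the precursor of p52 in the non-canonical arm. It was at 46.6, 58.7 and 59.2 CPM in controls and 64.4, 72.2 and 63.0 CPM in Dnmt1Δ/Δep. Here the groups did not overlap, but the gap was narrow and the log2 fold change of 0.28 (95% interval -0.01 to 0.57) did not pass (edgeR adjusted p = 0.23). Exons of Nfkb2 overlap those of Psd on the opposite strand over 6.52% of their length. Relb, the transactivating partner of p52, was at 8.46, 15.6 and 20.7 CPM in controls and 14.6, 16.7 and 17.5 CPM in Dnmt1Δ/Δep. The controls spanned more than the whole Dnmt1Δ/Δep range, and the log2 fold change was 0.13 (95% interval -0.56 to 0.82, edgeR adjusted p = 0.86). Within the lane-sharing pairs the log2 differences were 0.19, 0.22 and 0.06 for Nfkb1 and 0.47, 0.30 and 0.09 for Nfkb2. Those of Rela and Relb were of mixed sign. The sign of the difference was not stable for 3 of these low-change genes: it turned for Rela without control 2, for Relb without control 1, and for Birc3 without control 3 or without Dnmt1Δ/Δep 1. For each of the 6 members that did not pass the adjusted p, the 95% interval stayed within a 2-fold change in either direction.

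**Figure D2:**
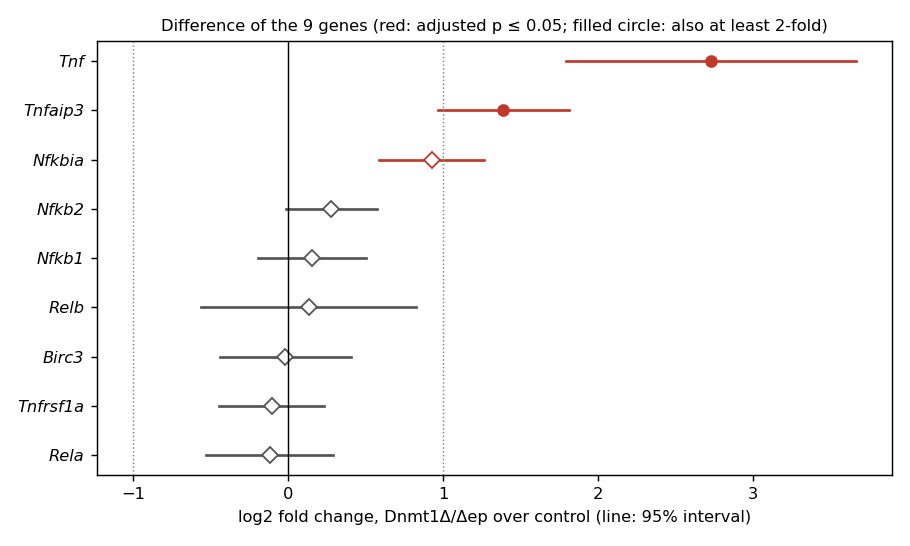
Log2 fold change of each of the 9 genes, Dnmt1Δ/Δep over control, with its 95% interval from the edgeR fit (dotted lines: 2-fold). Tnf at 2.73 and Tnfaip3 at 1.39 are called (filled circles), Nfkbia at 0.92 passes the adjusted p only (red, open), and the intervals of the other 6 genes include 0.

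The composition of the subunit pool was compared per exon length, as the share of each of the 5 subunit transcripts in their summed RPKM. The size of each share depends on the merged length of all annotated exons, which is 12061 bases for Nfkb1 and 3072 for Rela. Rela made up 59.9%, 63.7% and 59.5% in controls and 54.3%, 57.6% and 55.4% in Dnmt1Δ/Δep. These shares did not overlap, and the mean was 5.29 percentage points lower (61.0 ± 2.30% against 55.7 ± 1.66%, SD, n = 3). Nfkb2 made up 18.6%, 16.4% and 16.9% in controls and 22.4%, 20.3% and 19.5% in Dnmt1Δ/Δep, again without overlap and 3.44 points higher. Nfkb1 held 13.0 ± 0.928% and 14.3 ± 0.799%, Relb 5.36 ± 1.5% and 5.99 ± 0.423%, and Rel 3.25 ± 0.467% and 3.21 ± 0.552%, all overlapping. In the two-sided exact permutation test over libraries the raw p was 0.1 for Rela and Nfkb2, the smallest possible with 3 against 3, and 0.25 after adjustment over the 5 subunits. That unpaired test cannot reach 0.05 with 3 libraries a group. Within the lane-sharing pairs the Rela share differed by -5.64, -6.12 and -4.11 points and the Nfkb2 share by 3.80, 3.84 and 2.67 points, each of one sign, while the differences of the other 3 subunits were of mixed sign.

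**Figure D3:**
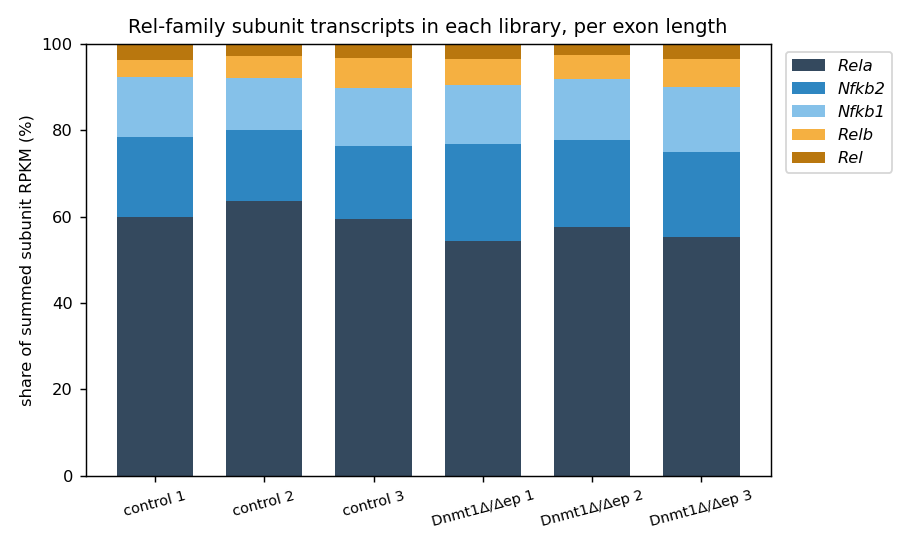
Share of each Rel-family subunit in the summed RPKM of the 5 subunits (%, stacked to 100), one bar per library. Rela takes 59.5% to 63.7% of the pool in the 3 control libraries and 54.3% to 57.6% in the 3 Dnmt1Δ/Δep libraries, and Nfkb2 16.4% to 18.6% and 19.5% to 22.4%.

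Both inhibitor genes among the 9 rose. Tnfaip3, the gene of A20, was at 22.0, 15.6 and 25.3 CPM in controls and 50.8, 58.6 and 55.1 CPM in Dnmt1Δ/Δep. All Dnmt1Δ/Δep libraries were at least as high as 50.8 CPM and no control exceeded 25.3 CPM. The level rose 2.62-fold, from 21.0 ± 4.90 to 54.8 ± 3.91 CPM (SD, n = 3), with a log2 fold change of 1.39 (SE 0.18, edgeR adjusted p = 0.0045). The log2 differences within the lane-sharing pairs were 1.21, 1.91 and 1.12. The genes most like Tnfaip3 in pattern were Rinl, Ifitm3 and Rnd1, at distances of 0.11, 0.12 and 0.14, and 30 of the 12462 genes lay within 0.25.

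Nfkbia, the gene of IkappaBα, was at 137, 107 and 149 CPM in controls and 269, 255 and 222 CPM in Dnmt1Δ/Δep. The groups did not overlap. The level rose 1.90-fold, from 131 ± 21.3 to 249 ± 24.0 CPM (SD, n = 3), with a log2 fold change of 0.92 (SE 0.14, edgeR adjusted p = 0.0092), just under the 2-fold threshold. Without control 3 the log2 fold change was 1.02 and Nfkbia was called. Per exon length, Nfkbia was the most abundant of the 9 in each group, at 81.3 ± 13.2 and 154 ± 14.9 RPKM. Its ratio to Rela was 2.60, 1.34 and 2.03 in controls and 4.91, 3.55 and 3.54 in Dnmt1Δ/Δep (exact permutation p = 0.1, the smallest possible).

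Ordered by RPKM in controls, Nfkbia was followed by Rela at 42.6 ± 8.84 and Tnfrsf1a at 41.2 ± 6.68, which did not differ beyond their spread. Nfkb2 at 11.97 ± 1.55 and Nfkb1 at 9.03 ± 1.39 came next, then Relb at 3.84 ± 1.58 and Tnfaip3 at 2.90 ± 0.678, whose ranges crossed. Birc3 at 1.99 ± 0.416 and Tnf at 1.28 ± 0.781 were lowest, again within their spread. In Dnmt1Δ/Δep the order changed only below Nfkb1, where Tnf at 8.37 ± 0.961 and Tnfaip3 at 7.59 ± 0.542 whose ranges crossed, moved above Relb at 4.19 ± 0.379 and Birc3 at 1.96 ± 0.164. On this scale Tnf went from the lowest of the 9 to a level near that of Nfkb1 at 10.04 ± 1.30 RPKM. The order depends on the length used, which merges all annotated exons. It was 12061 bases for Nfkb1, 3072 for Rela and 1639 for Tnf. In CPM, Nfkb1 was at 121 ± 15.6 and Tnf at 13.7 ± 1.57 in Dnmt1Δ/Δep.

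The same axis was then followed through 6 lists of 145 pathway genes, of which 125 were tested and which include the 9 members. In all, 27 were called higher and 0 lower, beside 6.03% and 0.392% of all genes. At an unadjusted p under 0.05, 52 were higher and 5 lower, beside 15.8% and 7.79% of all genes. DESeq2 called 35 higher and 0 lower, beside 6.94% and 0.606% of all genes for which it gave an adjusted p.

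**Figure D4:**
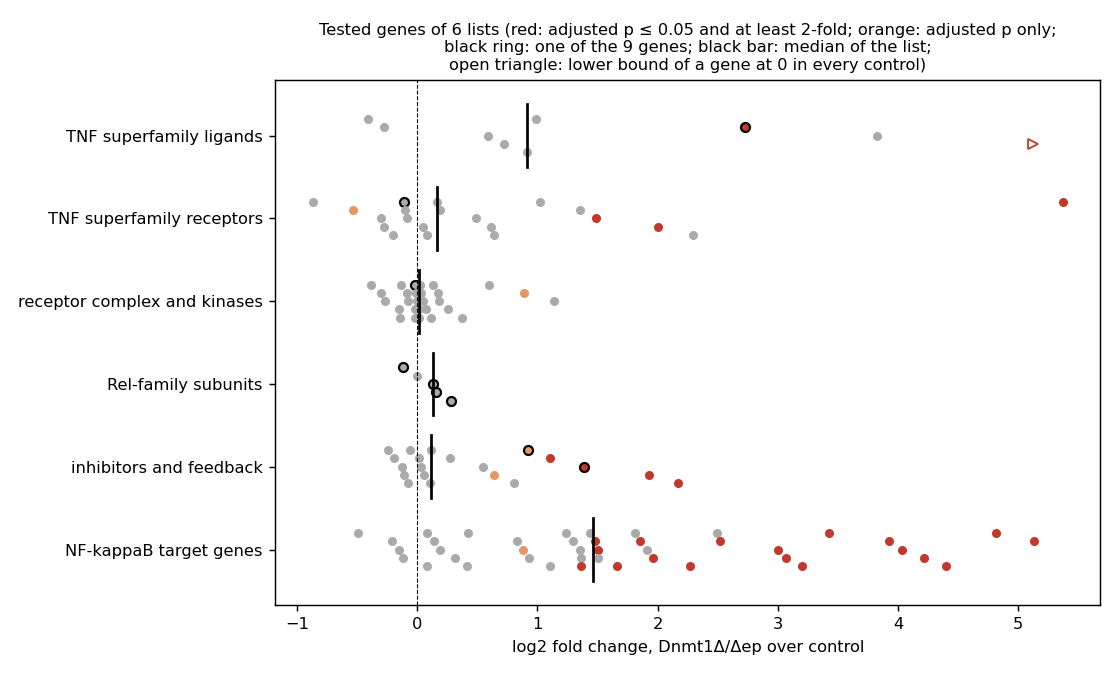
Log2 fold change, Dnmt1Δ/Δep over control, of every tested gene in 6 lists (one row per list, black bar at the list median, black rings for the 9 members, dashed line at 0). Red genes are called, orange genes pass the adjusted p only, and the open triangle is the lower bound for Tnfsf4, which had 0 counts in every control. The target list has its median at 1.46, while the kinase list at 0.02 and the subunit list at 0.13 lie close to 0.

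Of 18 ligand genes of the TNF superfamily, 9 were tested and 2 were called higher, Tnf and Tnfsf4, beside 6.03% of all genes. The median log2 fold change of the list was 0.91. Tnfsf4 encodes OX40 ligand, a costimulator of T cells. It had 0 counts in all 3 controls and 0.671, 0.312 and 0.381 CPM in Dnmt1Δ/Δep. Against a floor of 3 counts over the summed controls it was at least 34.8-fold higher (edgeR adjusted p = 0.0079). The ligand next by adjusted p, Tnfsf9 (4-1BB ligand), was at 2.47, 2.06 and 1.68 CPM in controls and 3.98, 4.54 and 3.23 CPM in Dnmt1Δ/Δep without overlap, and missed the threshold (log2 fold change 0.91, edgeR adjusted p = 0.051). Tnfsf13, the gene of the B cell factor APRIL, was barely detected, at 0, 0 and 0.0372 CPM in controls and 0.168, 0.150 and 0.110 CPM in Dnmt1Δ/Δep (edgeR adjusted p = 0.054), and other genes overlap 60% of its exon length. Eda, the ectodysplasin ligand of hair follicle development, was not called (log2 fold change -0.27, edgeR adjusted p = 0.44). The count of called ligands was 4 without control 1, 3 by DESeq2 (beside 6.94% of all genes) and 1 with a minimum mean of 1 RPKM.

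Of 25 receptor genes, 21 were tested and 3 were called higher (median 0.16), beside 6.03% of all genes. Beside Tnfrsf1b these were Tnfrsf26 and Tnfrsf23, which lie in one cluster on chromosome 7 with Tnfrsf22 between them. Tnfrsf26 was at 0.846, 0.205 and 0.298 CPM in controls and 20.2, 17.3 and 19.6 CPM in Dnmt1Δ/Δep, with a log2 fold change of 5.37 (SE 0.50, edgeR adjusted p = 0.0012), which was 6.28 without control 1. Tnfrsf23, which encodes a decoy receptor for the ligand TRAIL, was at 40.2, 23.5 and 32.5 CPM in controls and 108, 91.2 and 71.6 CPM in Dnmt1Δ/Δep, with a log2 fold change of 1.49 (SE 0.23, edgeR adjusted p = 0.0082). Tnfrsf22, 6083 bases from Tnfrsf26, was at 20.4, 10.6 and 11.4 CPM and at 23.2, 22.5 and 20.4 CPM, and did not pass (log2 fold change 0.64, edgeR adjusted p = 0.18). These receptors are close relatives in sequence. The column headers name uniquely mapped reads, so reads that map equally well to several of them would have been left out. Tnfrsf18, the GITR gene, was the only receptor lower by the adjusted p, at 30.1, 29.4 and 33.3 CPM in controls and 20.8, 21.0 and 22.3 CPM in Dnmt1Δ/Δep (log2 fold change -0.53, edgeR adjusted p = 0.021). An antisense gene covers 27.2% of its exon length. The TRAIL and Fas receptor genes Tnfrsf10b and Fas had log2 fold changes of 0.08 and -0.08 (edgeR adjusted p = 0.80 and 0.84). With the replicate number as a block, 5 receptors were called, since Ngfr (log2 fold change 2.26, edgeR adjusted p = 0.019) and Tnfrsf4 (1.08, edgeR adjusted p = 0.032) also passed. DESeq2 called 5 as well, beside 6.94% of all genes.

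The receptor complex and kinase list had 28 members, all tested, of which 0 were called by edgeR and 0 by DESeq2, beside 6.03% of all genes called higher by edgeR and 6.94% by DESeq2. At an unadjusted p under 0.05, 4 were higher and 2 lower, beside 15.8% and 7.79% of all genes, and the median log2 fold change was 0.02. The IkappaB kinase genes Chuk, Ikbkb and Ikbkg had log2 fold changes of 0.01, 0.05 and 0.12, each with an edgeR adjusted p of 0.56 or more. Ikbke, an IKK-related kinase that acts in interferon induction, was the only gene of this list to pass the adjusted p. It was at 22.1, 26.8 and 26.7 CPM in controls and 39.8, 56.5 and 43.7 CPM in Dnmt1Δ/Δep, with a log2 fold change of 0.89 (SE 0.16, edgeR adjusted p = 0.015). For 25 of the 28 genes the 95% interval stayed within a 2-fold change. The subunit list, with Rel added to the 4 members, had 0 of 5 called by edgeR, by DESeq2 and at an unadjusted p under 0.05.

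Of 20 inhibitor and feedback genes, 4 were called higher and 0 lower (median 0.11), beside 6.03% and 0.392% of all genes. By the adjusted p alone 6 were higher, beside 7.71% of all genes. Zc3h12a, which encodes the RNase Regnase-1 that degrades cytokine mRNA, was at 6.32, 12.8 and 20.1 CPM in controls and 41.8, 76.6 and 57.7 CPM in Dnmt1Δ/Δep. Its log2 fold change was 2.17 (SE 0.42, edgeR adjusted p = 0.020). Tnip3, an A20-binding partner, was low, at 0.211, 0.123 and 0.223 CPM in controls and 0.537, 0.486 and 1.07 CPM in Dnmt1Δ/Δep (log2 fold change 1.93, edgeR adjusted p = 0.041). Nfkbie, the gene of IkappaBε, was at 0.899, 1.32 and 1.75 CPM in controls and 2.92, 2.76 and 2.80 CPM in Dnmt1Δ/Δep (log2 fold change 1.10, edgeR adjusted p = 0.050). The Nfkbie call lies close to both thresholds. Of the 4 calls only that of Tnfaip3 was held in every fit without 1 library, and the count was 1 without control 2 or without Dnmt1Δ/Δep 2 or 3 and 2 without control 1 or without Dnmt1Δ/Δep 1. Nfkbiz, the atypical IkappaBζ, rose by less than 2-fold, from 136, 120 and 130 CPM to 203, 205 and 193 CPM (log2 fold change 0.64, edgeR adjusted p = 0.0063). Cyld and Otulin, deubiquitinases that limit the receptor complex, had log2 fold changes of -0.07 and 0.02 (edgeR adjusted p = 0.71 and 0.96), and Nfkbib, the IkappaBβ gene, 0.11 (edgeR adjusted p = 0.72).

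Of 49 known NF-kappaB target genes, 42 were tested, and 18 were called higher and 0 lower, beside 6.03% and 0.392% of all genes. The median log2 fold change was 1.46. In 26 of the 42 all Dnmt1Δ/Δep libraries lay above all controls, beside 18.2% of all genes. DESeq2 called 23 higher, beside 6.94% of all genes for which it gave an adjusted p. With the replicate number as a block Plaur (log2 fold change 1.55, edgeR adjusted p = 0.020) and Ptx3 (1.32, edgeR adjusted p = 0.048) were called as well. The target list was drawn up from textbook knowledge with earlier results of these data known, so its count is a description.

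**Figure D5:**
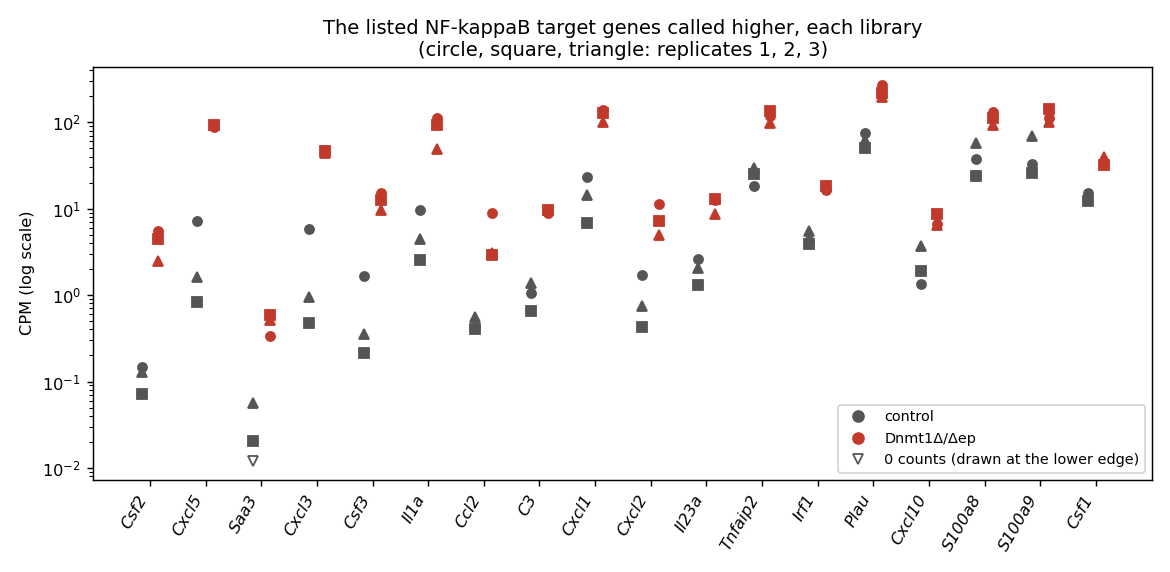
Read counts scaled to library size (CPM, log axis) of the 18 listed NF-kappaB target genes called higher, in each control (grey) and Dnmt1Δ/Δep (red) library, ordered from the largest to the smallest log2 fold change. In every gene the 3 Dnmt1Δ/Δep values lie above the 3 control values, and control 1 (circle) is the highest control for Csf2, Cxcl5, Cxcl3, Csf3, Il1a, Cxcl1, Cxcl2, Il23a, Plau and Csf1.

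Of the called targets, 5 encode cytokines other than chemokines. Csf2, the gene of GM-CSF, was at 0.148, 0.0718 and 0.130 CPM in controls and 5.45, 4.39 and 2.45 CPM in Dnmt1Δ/Δep, with a log2 fold change of 5.13 (SE 0.44, edgeR adjusted p = 0.00096). Il1a, an alarmin stored in keratinocytes, was at 9.57, 2.53 and 4.45 CPM in controls and 111, 92.0 and 49.5 CPM in Dnmt1Δ/Δep, with a log2 fold change of 3.93 (SE 0.54, edgeR adjusted p = 0.0057). Csf3 (G-CSF), Il23a (a subunit of IL-23) and Csf1 (M-CSF) had log2 fold changes of 4.03, 2.51 and 1.36. Without control 1 the log2 fold changes of Il1a and Csf3 were 4.61 and 5.50. Il1b stayed at or below 0.302 CPM in every library (log2 fold change 1.5, edgeR adjusted p = 0.39).

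Chemokine genes that draw neutrophils formed the second group. Cxcl5 was at 7.22, 0.831 and 1.64 CPM in controls and 88.2, 93.5 and 93.5 CPM in Dnmt1Δ/Δep, with a log2 fold change of 4.81 (SE 0.76, edgeR adjusted p = 0.0096). Control 1 stood well above the other controls here. Cxcl3 had the same order, with 5.86, 0.472 and 0.949 CPM in controls against 47.2, 45.8 and 44.6 CPM (log2 fold change 4.22, edgeR adjusted p = 0.024). Cxcl1 and Cxcl2 had log2 fold changes of 3.06 and 3.0. Without control 1 the log2 fold changes were 6.27 for Cxcl5, 6.08 for Cxcl3 and 3.75 for Cxcl2. The monocyte chemokine gene Ccl2 and the T cell chemokine gene Cxcl10 had log2 fold changes of 3.43 and 1.66. In the Dnmt1Δ/Δep group Ccl2 was at 8.82 CPM in library 1 and at 2.89 and 3.08 CPM in the others, all above the highest control at 0.558 CPM, and without library 1 its log2 fold change was 2.70.

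The remaining called targets encode acute-phase and antimicrobial proteins (Saa3, C3, S100a8, S100a9), the protease urokinase (Plau), the transcription factor IRF1 and the TNF-induced protein TNFAIP2. C3, the central complement component, was at 1.06, 0.646 and 1.38 CPM in controls and 8.86, 9.66 and 9.63 CPM in Dnmt1Δ/Δep, with a log2 fold change of 3.20 (SE 0.29, edgeR adjusted p = 0.0010). Irf1 was at 4.25, 3.86 and 5.57 CPM in controls and 16.6, 18.3 and 18.4 CPM in Dnmt1Δ/Δep, a log2 fold change of 1.96 (SE 0.17, edgeR adjusted p = 0.0010). The log2 fold changes of Tnfaip2, Plau, S100a8 and S100a9 were 2.27, 1.85, 1.5 and 1.48. Saa3 rested on 5 control reads in all, with 0, 0.0205 and 0.0558 CPM in controls and 0.336, 0.590 and 0.509 CPM in Dnmt1Δ/Δep (log2 fold change 4.4, edgeR adjusted p = 0.014), and its log2 fold change was 3.74 without control 1 and 5.35 without control 3. Of the 18 calls, 11 were held in every fit without 1 library and 7 were not, namely Cxcl2, Cxcl3, Cxcl10, Csf3, Saa3, S100a8 and S100a9.

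Of the tested targets that were not called, Bcl2l1, the gene of the survival factor BCL-XL, passed the adjusted p under the 2-fold threshold (log2 fold change 0.88, edgeR adjusted p = 0.016). Ccl20, Vcam1, Tlr2 and Ier3 had log2 fold changes of 1.91, 1.81, 0.93 and 0.83 without overlap between the groups, but did not pass (edgeR adjusted p = 0.082, 0.087, 0.060 and 0.084). In all, 38 of the 42 log2 fold changes were above 0, beside 8397 of the 16829 genes tested. The lowest was that of Mmp9, at -0.49 (95% interval -1.22 to 0.24, edgeR adjusted p = 0.41), with overlapping groups. Some others were close to 0. Icam1, the adhesion molecule gene, was at 121, 96.5 and 94.9 CPM in controls and 116, 134 and 107 CPM in Dnmt1Δ/Δep (log2 fold change 0.19, 95% interval -0.13 to 0.51, edgeR adjusted p = 0.47). Sod2, the mitochondrial superoxide dismutase gene, had a log2 fold change of -0.12 (95% interval -0.33 to 0.10, edgeR adjusted p = 0.51), and the growth gene Myc -0.15 (95% interval -0.37 to 0.07, edgeR adjusted p = 0.40). For these 3 the groups overlapped, and the intervals stayed within a 2-fold change.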

How the data were processed

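RNA from 6 libraries was poly(A)-selected and sequenced. The authors deposited raw counts of reads per Ensembl gene. Per the labels, STAR and HTSeq on GRCm38 made them, after cutadapt and Bowtie2. Deposited fold changes and p-values of the authors' own comparison, and a table of repeat elements, were not used. Strand setting was not given in the sources used here. Counts were analysed with edgeR 4.0.16 in R 4.3.3 (TMM factors, filterByExpr, quasi-likelihood test of all 6 libraries, no block, Benjamini-Hochberg adjustment over 16829 genes), with DESeq2 1.42.0 as an alternative. CPM used TMM-scaled library sizes. RPKM also used the merged exon length from GENCODE M21. Reads assigned to no gene, 8.73% to 12.9% of each table, were left out. Intervals are 95% and come from the edgeR standard error. They measure the spread between these libraries, one per mouse. The code was tested on simulated data.

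Same-numbered control and Dnmt1Δ/Δep libraries shared a lane number in the column headers, and their deviations from the group means correlated (0.43, 0.28 and 0.30), so the numbers pair the libraries. The main fit and its intervals did not use the pairs. With the replicate number as a block, the SE was smaller for each member. It went from 0.149 to 0.073 for Nfkb1, from 0.176 to 0.084 for Rela and from 0.145 to 0.082 for Tnfrsf1a. The edgeR adjusted p was then 0.22 for Nfkb1, 0.12 for Nfkb2 and at least 0.45 for Tnfrsf1a, Rela, Relb and Birc3.

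The 9 genes, the pathway and marker lists and the rule for named genes (members, called list genes and up to 3 per list that did not pass, and the genes nearest to each called member) were chosen with earlier results of these data known. Tnfsf9, Tnfsf13, Tnfrsf22, Tnfrsf18, Ikbke, Nfkbiz, Il1b, Ngfr, Tnfrsf4, Plaur, Ptx3, Bcl2l1, Ccl20, Vcam1, Tlr2, Ier3, Mmp9, Lta and Ltb were named after their values were seen.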

Additional observations from a re-analysis of the deposited data

How the results depend on the processing

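The settings tried were other scaling factors (RLE and upper-quartile), DESeq2, no filter on low counts, a minimum mean of 1 RPKM, the replicate block, and leaving out each library in turn. Tnf and Tnfaip3 were called under all 12 of them, with log2 fold changes of 2.49 to 3.33 and 1.21 to 1.54. The members called numbered 2 under each except without control 3, where Nfkbia at 1.02 made them 3. The members passing the adjusted p numbered 3 under every setting. The replicate block changed no call among the 9 members (27 pathway genes called without it and 31 with it). Pathway genes called ranged from 20 to 31 without 1 library, and 17 of the 27 were called in every such fit. Of all genes, 395 were called higher with the RPKM minimum, 559 without control 2 and 591 without Dnmt1Δ/Δep 1, against 1014. Lower calls numbered 66, and 15 without control 2 or without Dnmt1Δ/Δep 1, 25 without Dnmt1Δ/Δep 2, 33 without control 3, 42 without Dnmt1Δ/Δep 3, 180 without control 1, 35 with the RPKM minimum, 107 without the filter and 122 by DESeq2. Signs turned for Rela without control 2 (0.0024), Relb without control 1 (-0.15), and Birc3 without control 3 (0.15) or Dnmt1Δ/Δep 1 (0.05), none of them called. Without 1 library their log2 fold changes ranged from -0.28 to 0.0024, -0.15 to 0.44 and -0.14 to 0.15. The share differences ranged without 1 library from -6.20 to -3.97 points for Rela, 2.59 to 4.10 for Nfkb2, 0.74 to 1.62 for Nfkb1, -0.061 to 1.42 for Relb and -0.28 to 0.28 for Rel. Those of Relb turned without control 1 (-0.061), and those of Rel without control 1 (0.18) or Dnmt1Δ/Δep 2 (0.28). The cause was not tested. The median of all genes moved by at most 0.03 on the log2 scale under any setting. At this depth 3 counts correspond to 0.0254 to 0.0558 CPM.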

Other observations

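Several genes of the pathway lists were too low to be tested. Nos2, the inducible nitric oxide synthase gene, whose groups did not overlap, was at 0, 0.0103 and 0.0186 CPM in controls and 0.101, 0.624 and 0.475 CPM in Dnmt1Δ/Δep. Il6, a classical NF-kappaB cytokine, did not exceed 0.185 CPM in any library. The T cell ligand genes Cd40lg, Tnfsf8 and Tnfsf14 had 0 counts in all 6 libraries.

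Some genes that were not called had no overlap between the groups. Ltbr, the lymphotoxin β receptor that feeds the non-canonical arm, was at 47.6, 59.3 and 54.0 CPM in controls and 65.8, 82.7 and 77.6 CPM in Dnmt1Δ/Δep (log2 fold change 0.49, edgeR adjusted p = 0.056). Cflar, which encodes the caspase-8 inhibitor c-FLIP, was at 55.9, 38.3 and 44.2 CPM and at 81.9, 67.5 and 60.4 CPM (log2 fold change 0.60, edgeR adjusted p = 0.077). The hair follicle receptor gene Edar lay the other way, at 1.66, 1.51 and 1.49 CPM and at 0.671, 0.983 and 0.890 CPM (log2 fold change -0.87, edgeR adjusted p = 0.072). These genes were picked after their values were seen.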
